A study of Mus musculus with 7 samples.

Results

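Mitochondria carry their own ribosomes, which translate the few proteins that mitochondrial DNA encodes, all of them subunits of the respiratory chain and the ATP synthase. The RNAs of this ribosome come from mitochondrial DNA, but every one of its proteins is encoded in the nucleus, made in the cytosol and imported. Proteins of the large subunit, which forms peptide bonds, mostly have symbols that begin with Mrpl, and those of the small subunit, which reads the messenger RNA, mostly have symbols that begin with Mrps. Heart muscle is packed with mitochondria, and inherited defects of several of these proteins cause cardiomyopathy in people. The genes described here were the protein-coding rows of the count table whose symbol was Mrpl or Mrps followed by a number. The rule used the name alone and found 36 genes among 20343 rows, of which 9843 were protein-coding: 20 of the large subunit and 16 of the small subunit. All 36 passed the filter on low counts, which kept 7667 genes of the table.

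Polyadenylated RNA was sequenced from apical myocardium in 7 samples. They are read here as 7 mice, which separate identifiers imply but the sources do not state. Both groups were of the strain labelled NSG-DRB1*0101, also written NSG-DR1, an immunodeficient mouse that lacks mature lymphocytes of its own and carries a human HLA-DR1 transgene. Of the 7 mice, 4 controls received nothing, and 3 were given human CD4+ T cells and are called transferred hearts, collected 6 weeks later. Ages, T cell donors and whether any mice shared a litter are not given in the sources used here. Because the controls received no cells at all, the effect of T cells and that of being given cells cannot be told apart. Hearts are numbered 1 to 4 and 1 to 3 in accession order, which only names them.

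The rows analysed came from chromosomes 1 to 7 and the first part of chromosome 8. Mitochondrial ribosomal protein genes elsewhere are not analysed here. Column totals ran from 16402179 to 25190560 counts, so that 3 counts corresponded to 0.119 to 0.183 counts-per-million (CPM). All levels below are CPM after TMM scaling (trimmed mean of M values), and all fold changes are transferred over control on the log2 scale. Cardiomyocyte genes were abundant, as the tissue label says: the 11 of 19 listed cardiomyocyte markers that were in the table summed to between 114801 and 131448 CPM in controls and to 140308, 111124 and 112015 CPM in transferred hearts 1, 2 and 3, the first above every control and the others below. Macrophage and monocyte markers differed between the groups. Their 9 measured genes of 15 listed summed to 453 to 663 CPM in controls and to 1042, 1161 and 800 CPM in transferred hearts 1, 2 and 3. Of these 9 genes, 9 were higher and 2 passed an adjusted threshold of 0.05 by edgeR, against 0.235% of all tested genes. By DESeq2 9 passed and by limma-voom 0, and in fits that left out 1 heart 0 passed, except for 6 without transferred heart 3. Neutrophil markers summed to 8.87 to 12 CPM in controls and to 12.2, 259 and 36.7 CPM in the transferred hearts, so that transferred heart 2 stood far above the rest. The lymphocyte list had 7 of 11 genes in the table, of which 3 were tested. Adipocyte markers reached at most 0.861 CPM in any heart. Endothelial markers summed to 7391 to 8523 CPM in controls and 7515 to 8743 CPM in transferred hearts, but single genes moved apart. Aqp1, a water channel, fell by 1.01 on the log2 scale (adjusted p = 0.0384 by edgeR). That call was lost with limma-voom, with the identifier form as a covariate, and without the hearts whose identifiers begin with letters. It was also lost without any 1 of the controls or transferred heart 2. Vwf, the von Willebrand factor, was at 1.17 (edgeR adjusted p = 0.200) and Tie1 at -0.28 (edgeR adjusted p = 0.185). For Aqp1, Vwf and Tie1 the groups did not overlap. Fibroblast markers summed to 1407 to 1928 CPM in controls and 1277 to 1709 CPM in transferred hearts. For the 2 measured smooth muscle and pericyte markers these sums were 1373 to 1539 and 1152 to 1386 CPM.

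Every mitochondrial ribosomal protein gene was expressed in every heart, at levels that repeated closely from heart to heart. Mean levels in controls ran from 46.9 CPM for Mrps11 to 421 CPM for Mrpl51, with a median of 124 CPM, against a median of 28.1 CPM over all tested genes. The lowest count of any of the 36 genes in any heart was 736. Among controls, the median coefficient of variation was 4.97% for these genes and 11.1% for all tested genes. Among transferred hearts it was 8.99% and 12.5%. The higher level of these genes went with the smaller spread, and its part in it was not tested.

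The groups differed little. None of the 36 genes passed the adjusted threshold of 0.05 in the edgeR quasi-likelihood test, where 0.235% of all tested genes did (18 of 7667), and DESeq2, which passed 3.29% of all tested genes, and limma-voom, which passed 0 of them, also passed none. At an unadjusted p under 0.05, 4 of the 36 genes were lower in transferred hearts (11.1%, against 5.27% of all tested genes) and 2 were higher (5.56%, against 7.17%). The 4 lower genes were Mrps12, Mrps2, Mrps17 and Mrpl44, and the 2 higher genes were Mrpl23 and Mrpl33. Counted by overlap, 5 of the 36 genes were lower in all transferred hearts than in any control (13.9%, against 5.22% of all tested genes) and 2 were higher (5.56%, against 5.99%). The count of 6 genes at an unadjusted p under 0.05 came to 2 without control heart 2 and to 2 without transferred heart 3.

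Fold changes were small and leaned to the lower side. The log2 fold change was below 0 for 26 of the 36 genes (72.2%), against 50.3% of all tested genes, and its median was -0.06 against -0.0020 over all tested genes. A median of this size is a level of 0.956 times that of controls. Log2 fold changes ran from -0.27 for Mrps2 to 0.18 for Mrpl23, and 27 of the 36 genes (75.0%) differed by less than 10%, against 53.7% of all tested genes. The data also bounded the size of any difference. The 95% interval of the fold change, taken one gene at a time, lay within 1.5-fold in both directions for all 36 genes, against 61.8% of all tested genes. It lay within 1.25-fold for 28 of the 36 (77.8%), against 29.3%. These intervals are those of the main fit. The 36 genes also had a higher median level in controls than all tested genes (124 against 28.1 CPM). Its part in these shares was not tested. The widest bounds were a fold of 0.699 for Mrps2 and of 1.26 for Mrpl23.

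**Figure D1:**
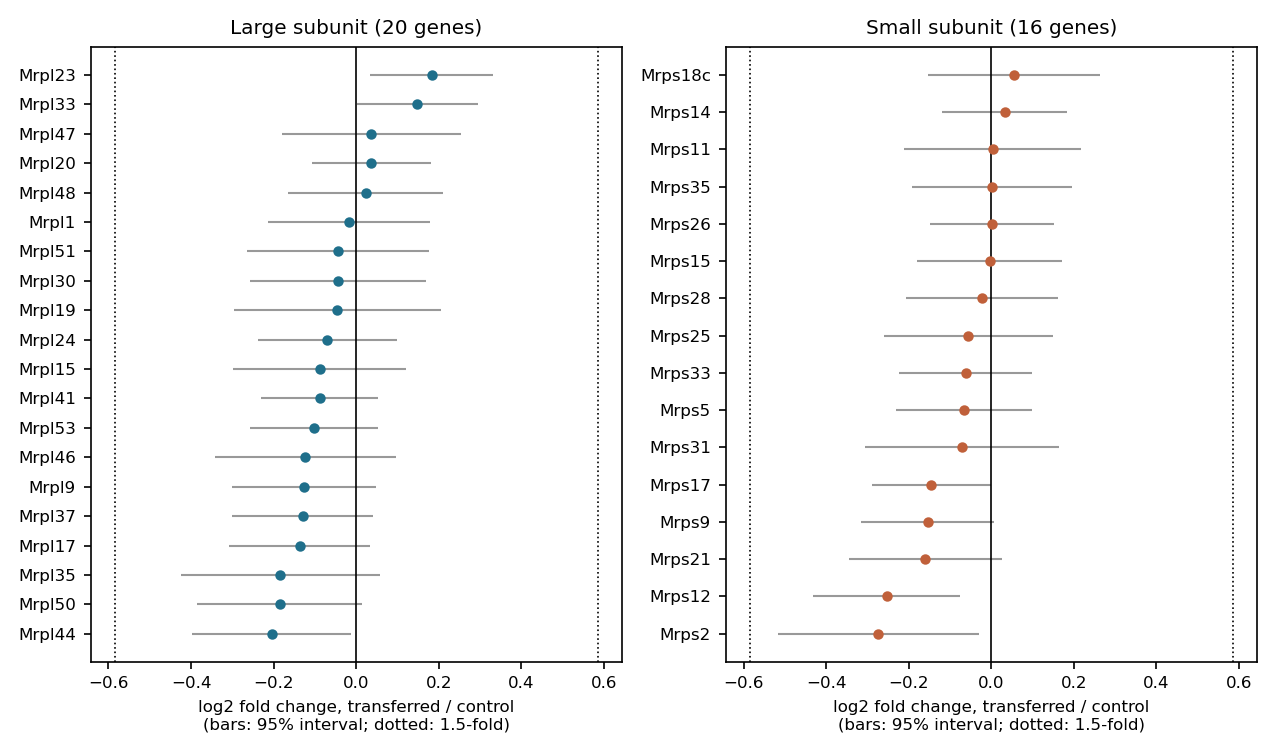
Log2 fold change of each mitochondrial ribosomal protein gene, transferred over control (x axis), with genes on the y axis, large subunit on the left and small subunit on the right. Points are edgeR estimates, bars are 95% intervals and dotted lines mark 1.5-fold. All 36 bars lie between the dotted lines, and 26 of the 36 points lie left of 0.

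The large subunit genes had a median log2 fold change of -0.08, with 15 of 20 below 0, and the small subunit genes a median of -0.06, with 11 of 16 below 0. Summed over its 20 genes, the large subunit reached 3331, 3500, 3271 and 3417 CPM in control hearts 1 to 4 and 3508, 3217 and 2995 CPM in transferred hearts 1 to 3. Transferred heart 1 was the highest of all 7 hearts and transferred heart 3 the lowest, so the groups overlapped. The means were 3380 ± 99.97 CPM (SD, n = 4) and 3240 ± 257 CPM (SD, n = 3). Summed over its 16 genes, the small subunit reached 1936, 1966, 1916 and 1909 CPM in controls and 1920, 1841 and 1721 CPM in transferred hearts. Transferred heart 1 lay among the controls, whereas transferred hearts 2 and 3 lay below all of them. The means were 1932 ± 25.5 CPM (SD, n = 4) and 1827 ± 100.4 CPM (SD, n = 3). These places depended on the scaling. With CPM from total counts alone, the small subunit sum was 1808, 1900 and 1802 CPM in transferred hearts 1, 2 and 3 against 1845 to 1983 CPM in controls, so that heart 1 lay below the controls and heart 2 among them. The large subunit sum was then 3303, 3319 and 3136 CPM against 3302 to 3444 CPM, with only heart 3 outside the range of controls. The ratio of the large to the small subunit sum was 1.75 ± 0.04 (SD, n = 4) in controls and 1.77 ± 0.05 (SD, n = 3) in transferred hearts, a difference smaller than either SD. Together the 36 genes made up 0.519% to 0.547% of scaled counts in controls and 0.472% to 0.543% in transferred hearts. In bulk tissue, fewer cells of a type and less RNA per cell cannot be told apart.

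The 3 transferred hearts did not move together. Relative to the control mean of each gene, the median over the 36 genes was 0.05 in transferred heart 1, -0.09 in transferred heart 2 and -0.17 in transferred heart 3, while the 4 controls lay between -0.02 and 0.03. Transferred heart 3 held the lowest value of the 7 hearts for 21 of the 36 genes and lay below every control for 25. Transferred heart 1 held the highest value for 13 and lay above every control for 15. Transferred heart 2 lay below every control for 17. Without transferred heart 3, 18 genes were lower and 18 higher. The median log2 fold change was -0.00042, above the -0.013 of all tested genes in that fit. The small subunit median then came to 0.01 and the large subunit median to -0.03. Without transferred heart 1, 33 genes were lower and the median was -0.13, and without transferred heart 2, 25 were lower and it was -0.05. The medians of the cardiomyocyte markers had the same order, 0.22, -0.04 and -0.12 in transferred hearts 1, 2 and 3, and their part in the values of the 36 genes was not tested. Transferred hearts 1 and 3 also had the most extreme scaling factors, 0.942 in transferred heart 1 and 1.05 in transferred heart 3. With CPM from total counts alone, the median was -0.03 in transferred heart 1, -0.04 in transferred heart 2 and -0.10 in transferred heart 3, so that the sign for transferred heart 1 depended on the scaling. The order of the 3 hearts over all 36 genes did not, but in the small subunit alone it did, with -0.04, -0.0015 and -0.08. On that scale transferred heart 3 held the lowest value for 13 genes and transferred heart 1 the highest for 5.

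**Figure D2:**
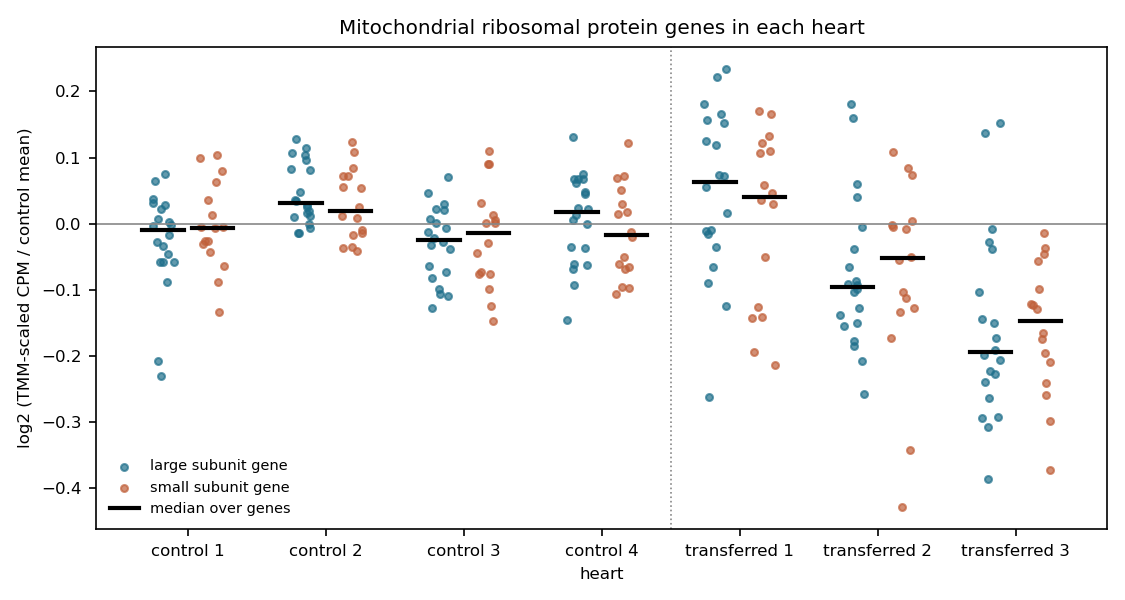
Level of each of the 36 genes in each heart, as log2 of TMM-scaled CPM over that gene's mean in controls (y axis), for the 7 hearts (x axis), with the dotted line between controls and transferred hearts. Points are genes coloured by subunit and bars are medians. Controls centre on 0, whereas transferred heart 1 lies above it and transferred heart 3 below it.

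The hearts also carry identifiers of different forms in the labels, which begin with letters for 2 hearts (the first of each group) and are numbers alone for the other 5. Whether the form marks a batch is not stated. Between the letter-prefixed hearts, the median over the 36 genes was 0.06 and 14 genes were lower in the transferred heart. Among the other 5 hearts it was -0.12 and 31 genes were lower. The direction of the median therefore did not hold within both forms, while with the form as a covariate in the fit the median over all 7 hearts was -0.07, with 28 genes lower. Of the 36 genes, 12 were lower within both forms and 3 were higher within both.

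In the small subunit, Mrps12, the counterpart of bacterial S12 at the decoding centre, had the smallest p of all 36 genes. It stood at 102, 93.0, 87.4 and 98.7 CPM in controls and at 82.2, 75.2 and 82.4 CPM in transferred hearts (chromosome 7, 28739641 to 28741821, GRCm38). All 3 transferred hearts lay below all 4 controls. Its log2 fold change was -0.25 with a standard error of 0.08, and its edgeR p of 0.0102 became 0.232 after Benjamini-Hochberg adjustment. Mrps2, the counterpart of bacterial S2, had the most negative fold change. It measured 113, 124, 107 and 129 CPM in controls and 114, 87.9 and 91.4 CPM in transferred hearts. Transferred heart 1 lay within the control range and the other 2 below it, with a log2 fold change of -0.27 ± 0.11 (SE) and an edgeR adjusted p of 0.340. Mrps17, the counterpart of S17, which binds the ribosomal RNA early in assembly, differed by less but without overlap. Its values were 129.7, 131, 133 and 135 CPM in controls and 119.7, 117 and 121 CPM in transferred hearts, a log2 fold change of -0.15 ± 0.06 (SE) and an edgeR adjusted p of 0.397. Mrps9, the counterpart of S9, was at 211, 200.5, 219 and 192 CPM in controls and at 179.7, 191 and 183 CPM in transferred hearts. The lowest control and the highest transferred heart were less than 1 CPM apart, and the log2 fold change was -0.15 ± 0.07 (SE; edgeR adjusted p = 0.427).

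Per kilobase of exon, the highest small subunit gene was Mrps21, the counterpart of S21, at 321 CPM per kb in controls, and the lowest was Mrps25, a protein that bacterial ribosomes lack, at 24.7 CPM per kb. The exon length used here joins the exons of all isoforms, which lowers the value of genes with long alternative exons. Mrps21 was at 173, 170.2, 156 and 157 CPM in controls and at 149, 158 and 133 CPM in transferred hearts, with overlap between the groups. Mrps25 was at 149, 156, 147 and 148 CPM in controls and at 163, 144 and 125 CPM in transferred hearts, which lay on both sides of the controls. The other genes of the subunit, Mrps5, Mrps11, Mrps14, Mrps15, Mrps18c, Mrps26, Mrps28, Mrps31, Mrps33 and Mrps35, had log2 fold changes between -0.07 for Mrps31 and 0.06 for Mrps18c, and the groups overlapped for each of them. For Mrps26, the values were 97.7, 92.9, 93.9 and 89.7 CPM in controls and 96.6, 93.2 and 91.2 CPM in transferred hearts, with all transferred hearts inside the control range.

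In the large subunit, the gene with the smallest p was on the higher side. Mrpl23, the counterpart of bacterial L23 beside the exit of the peptide tunnel, measured 121, 121, 118 and 114 CPM in controls and 139, 132 and 132 CPM in transferred hearts (chromosome 7, 142532467 to 142540747). The groups did not overlap, the log2 fold change was 0.18 with a standard error of 0.07, and the edgeR p of 0.0211 became 0.301 after adjustment. This value is uncertain, because the table also holds a pseudogene of it, Mrpl23-ps1 on chromosome 2 (74591359 to 74591915), and the authors' counting could split reads between them. Mrpl23 itself had a whole count in every heart, and whether reads were split was not tested. Mrpl23-ps1 was at 75.0 ± 2.99 CPM (SD, n = 4) in controls and 86.1 ± 3.43 CPM (SD, n = 3) in transferred hearts, a log2 fold change of 0.20 close to that of Mrpl23. Mrpl33, a small protein with a bacterial counterpart, was also higher without overlap. It stood at 141, 143, 146 and 136 CPM in controls and 154, 160.4 and 156 CPM in transferred hearts (log2 fold change 0.15 ± 0.07 SE, edgeR adjusted p = 0.398). At 304 CPM per kb it was also the highest gene of the subunit by level per length.

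Mrpl44 belongs to the proteins that bacterial ribosomes lack, has a fold related to RNase III, and is known from inherited cardiomyopathy in infants. Its level was 139.6, 145, 135 and 149 CPM in controls and 134, 128 and 109 CPM in transferred hearts (chromosome 1, 79776018 to 79781445). No transferred heart reached the lowest control, and the log2 fold change was -0.20 ± 0.09 (SE) with an edgeR adjusted p of 0.374. Mrpl50, another protein without a bacterial counterpart, was at 188, 179, 178 and 167 CPM in controls and at 149, 177 and 144 CPM in transferred hearts. Transferred heart 2 lay among the controls, and the log2 fold change was -0.19 ± 0.09 (SE; edgeR adjusted p = 0.438). Mrpl41, also without a bacterial counterpart, differed least of the genes without overlap, with 121, 123, 119 and 121 CPM in controls and 116, 113 and 113 CPM in transferred hearts, a log2 fold change of -0.09.

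Mrpl17, the counterpart of bacterial L17, had the lowest level per length of the large subunit, 18.8 CPM per kb. It measured 129, 128, 121 and 127 CPM in controls and 125, 111 and 108 CPM in transferred hearts, with transferred heart 1 inside the control range. Mrpl51 and Mrpl30 had the highest unadjusted CPM of the family, 421 ± 28.4 and 395 ± 23.5 CPM (SD, n = 4) in controls and 408 ± 53.3 and 383 ± 47.2 CPM (SD, n = 3) in transferred hearts. For both, transferred heart 1 was the highest of the 7 hearts and transferred heart 3 the lowest. The genes Mrpl1, Mrpl9, Mrpl15, Mrpl19, Mrpl20, Mrpl24, Mrpl35, Mrpl37, Mrpl46, Mrpl47, Mrpl48 and Mrpl53 had log2 fold changes between -0.18 for Mrpl35 and 0.04 for Mrpl47, and their groups overlapped.

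**Figure D3:**
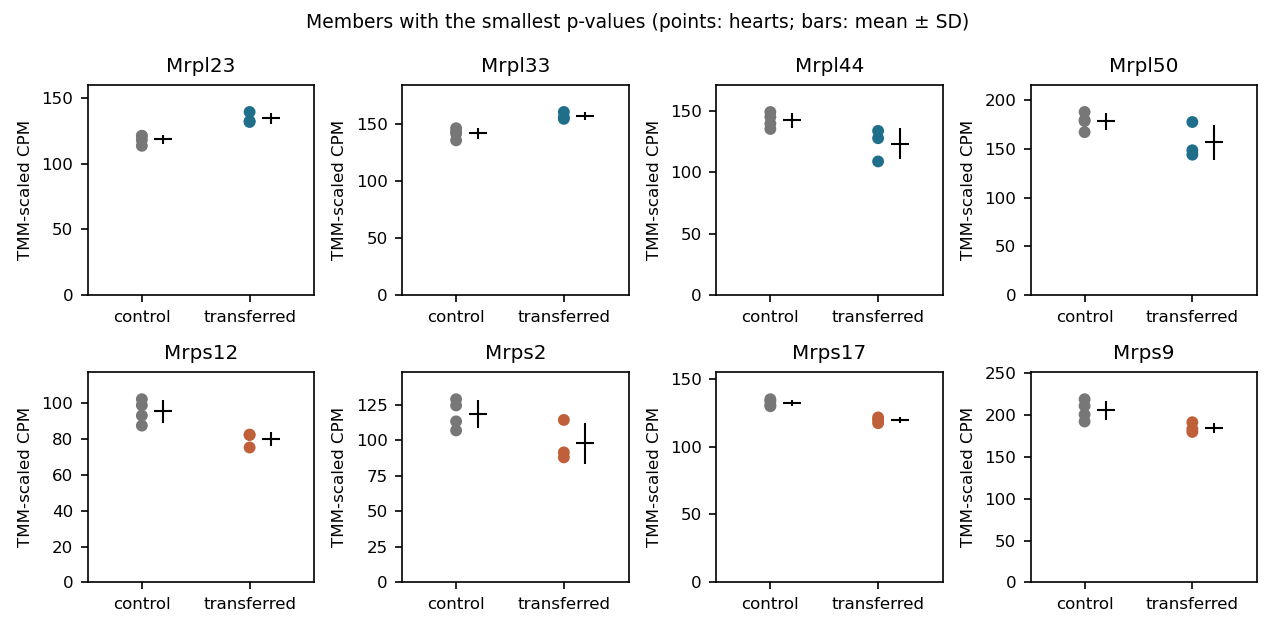
TMM-scaled CPM (y axis, from 0) of the 4 genes of each subunit with the smallest p-values, in 4 control and 3 transferred hearts (x axis). Points are hearts and crosses are means with SD. Mrpl23 and Mrpl33 are higher in all 3 transferred hearts, Mrps12, Mrps17, Mrps9 and Mrpl44 are lower in all 3, and Mrps2 and Mrpl50 overlap.

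Proteins with a counterpart in bacterial ribosomes were set beside those found only in mitochondrial ribosomes, with no test of the difference. The 23 genes of the bacterial type had a median log2 fold change of -0.05 with 16 below 0, and the 13 mitochondria-specific genes a median of -0.07 with 10 below 0. Without transferred heart 3 these medians were 0.03 and -0.05, without transferred heart 1 they were -0.12 and -0.15, and the first was -0.03 without control heart 2 and -0.08 without control heart 3. The median was also taken without genes that share reads or overlap others. With only the 20 genes that had whole counts, no overlapping gene and no pseudogene row in the table, it was -0.07 (-0.12 without transferred heart 1 and -0.02 without transferred heart 3). Of the 36 genes, 8 had a fractional count in at least 1 heart and 11 overlapped another gene. Whether the counting used the strand is not given in the sources used here.

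The promoters of these genes were examined for the motifs of factors known to act on nuclear genes for mitochondrial proteins: NRF1, the ETS-family factor GABPA and YY1. Sequences were taken from RefSeq for build GRCm38.p6 and run from 250 bases before to 50 bases after the annotated start. A promoter was found for 32 of the 36 genes (not for Mrpl15, Mrpl19, Mrps28 and Mrps35). Both strands were searched, and no match of one motif overlapped a match of another in these promoters. These genes had 35 annotated starts, 4 of them for Mrpl48, and a gene was counted once if any of its promoters held the motif. The NRF1 core GCGCATGCG was found for 2 of the 32 genes (6.25%), against 1.95% of 27025 genes with a promoter and 3.28% of the tested genes. The GABPA core CCGGAAGT was found for 5 (15.6%, against 4.31% and 7.99%) and the YY1 core AAGATGGCG for 3 (9.38%, against 1.64% and 2.72%). TATAAA, the letters of a TATA box, was also found for 3 (9.38%, against 15.7% and 9.57%). The NRF1 core was found at Mrpl9 and Mrpl17, the GABPA core at Mrpl33, Mrpl48, Mrpl51, Mrps18c and Mrps26, and the YY1 core at Mrpl35, Mrpl37 and Mrps11. For 20 of the 32 genes none of the 4 was found. Only these exact letters were searched, so variants of a motif were not counted. The variant GCGCACGCG of the NRF1 core, for example, lies before the starts of Mrpl17 and Mrpl44. Mrpl44 is nevertheless among the genes without a match, so these counts are of exact letters and not of all possible sites. For 8 of the 32, Mrpl9 and Mrpl48 among them, a start used here lay inside the gene as the count table gives it: the Mrpl9 match and the GABPA match of Mrpl48 belong to such internal starts. A match is a description of letters and not a bound site.

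The 90 bases before the start are shown for the genes at the ends of the family: Mrps12, which had the smallest p and holds none of the 4 motifs, Mrpl51, which had the highest CPM and a GABPA core, and Mrpl17, which had the lowest level per length in the large subunit and an NRF1 core. They are printed 5′ to 3′ on the strand of the gene, with only the exact match in capitals. They lie at chr7:28741822-28741911 (minus strand), chr6:125192110-125192199 (plus) and chr7:105811088-105811177 (minus).
Mrps12: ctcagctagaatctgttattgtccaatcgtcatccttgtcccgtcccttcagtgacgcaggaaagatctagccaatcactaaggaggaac
Mrpl51: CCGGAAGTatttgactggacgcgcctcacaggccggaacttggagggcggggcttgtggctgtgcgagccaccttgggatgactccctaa
Mrpl17: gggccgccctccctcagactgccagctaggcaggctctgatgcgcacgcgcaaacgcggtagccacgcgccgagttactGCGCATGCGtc
The core in Mrpl17 ends 3 bases before the start. In Mrpl9 the core is part of a palindrome of 10 bases, so that it reads the same on both strands, shown here in capitals within 30 bases at chr3:94443298-94443327 (plus).
Mrpl9: aggcgcagctGCGCATGCGCggggtccttc
Beside these sequences, the log2 fold changes of Mrpl17 and Mrpl9, both with an NRF1 core, were -0.14 and -0.13, that of Mrpl51 was -0.04, and that of Mrps12, with none, was -0.25.

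Many genes for mitochondrial proteins start back to back with a neighbour on the other strand. Only protein-coding, tested neighbours that did not overlap the gene were counted, so overlapping neighbours such as Wdfy1 at Mrpl44 were left out. The share over all genes was not computed. Within 1000 bases, 10 of the 36 genes were in 9 such pairs, and in 1 pair both genes belonged to the family. These were Mrpl46 and Mrps11 on chromosome 7, with 41 bases between their starts (chr7:78783090-78783130), printed whole on the plus strand because it is all the sequence that separates a large from a small subunit gene.
Mrpl46-Mrps11: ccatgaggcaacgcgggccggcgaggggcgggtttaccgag
Mrpl46 was at 109, 119.9, 106 and 119 CPM in controls and 119, 100.2 and 92.5 CPM in transferred hearts, and Mrps11 at 46.7, 50.5, 43.8 and 46.4 CPM and 52.6, 42.9 and 45.4 CPM. Their log2 fold changes were -0.12 ± 0.10 and 0.0032 ± 0.10 (SE), and for neither were the groups apart. The Mrps12 sequence shown above lies in the 135 bases that separate Mrps12 from Sars2, the seryl-tRNA synthetase of mitochondria. Sars2 had a log2 fold change of -0.01 ± 0.12 (SE) beside the -0.25 ± 0.08 of Mrps12, a difference between neighbours that was not tested. Mrpl30 and Mitd1, whose starts are 27 bases apart, had values of -0.05 ± 0.10 and 0.67 ± 0.28 (SE). Mitd1 was at only 5.71 CPM in controls, beside 395 CPM for Mrpl30, and its edgeR adjusted p was 0.371.

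Genes that work with the mitochondrial ribosome were read from lists chosen by function. The list of tRNA synthetases also held Gatb and Gatc, subunits of an amidotransferase, and they are counted with it. By edgeR, no gene of the translation factor list, assembly factor, tRNA synthetase, gene of mitochondrial DNA expression or regulator of biogenesis passed the threshold, whereas DESeq2 passed 1 gene of the translation factor list and 1 regulator, and 3.29% of all tested genes (252 of 7667). At an unadjusted p under 0.05, 2 genes of the translation factor list (Gfm1 and Letm1), 3 assembly factors and 1 tRNA synthetase were lower (33.3%, 21.4% and 7.14% of those tested, against 5.27% of all tested genes) and 1 regulator was higher (14.3%, against 7.17%). When 1 heart was left out, the counts in either direction ran from 1 to 5 for the translation factor list (5 without transferred heart 1, 1 without transferred heart 2 or 3), from 1 (without control heart 3) to 4 for assembly factors, from 0 (without control heart 1, 2 or 4 or transferred heart 2 or 3) to 3 (without transferred heart 1) for tRNA synthetases and from 1 to 2 (without transferred heart 1) for regulators. Of the proteins of the ribosome itself with other names, 3 of 5 were in the table. Dap3, a small subunit protein that binds GTP, had a log2 fold change of -0.13 and Ptcd3, a pentatricopeptide protein of the small subunit, one of -0.08, with a value of 0.0055 for Aurkaip1. Of 18 genes listed as translation factors or their partners, 6 were in the table and 6 had values below 0, with a median of -0.20. Gfm1, the mitochondrial elongation factor G that moves the ribosome along, was at 558, 553, 524 and 566 CPM in controls and at 469, 437 and 477 CPM in transferred hearts. The groups stood well apart, with a log2 fold change of -0.26 ± 0.07 (SE), an edgeR p of 0.00490 and an adjusted p of 0.178. Letm1, an inner membrane protein of cation exchange that binds mitochondrial ribosomes, was at -0.36 ± 0.12 (SE; edgeR adjusted p = 0.278). Tufm, the elongation factor that brings aminoacyl-tRNA, measured 657, 815, 626 and 841 CPM in controls and 710, 563 and 580 CPM in transferred hearts. Its groups overlapped, with a log2 fold change of -0.25 ± 0.13 (SE; edgeR adjusted p = 0.489).

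Assembly factors and enzymes that modify the ribosomal RNA were measured for 14 of 28 listed genes, of which 13 had values below 0, with a median of -0.05. Without control heart 3, 9 were below 0, and the median was -0.08 without control heart 2 or transferred heart 1 and -0.11 without control heart 4 or transferred heart 3. Nsun4, a methyltransferase of the small subunit RNA, was lower without overlap, with 113, 118, 118 and 118 CPM in controls and 103, 101 and 99.5 CPM in transferred hearts. Its log2 fold change was -0.21 ± 0.07 (SE; edgeR adjusted p = 0.229), and that of Trub2, a pseudouridine synthase, was -0.24 ± 0.09 (SE; edgeR adjusted p = 0.325). The tRNA synthetase list, Gatb and Gatc included, was below 0 for 11 of 14 measured genes (23 listed). Its median was -0.07, with a value of -0.18 for Tars2. Without transferred heart 3, 7 of the 14 were below 0 and the median was -0.01. Genes of mitochondrial DNA replication, transcription and RNA processing were below 0 for 6 of 10 measured genes (25 listed), with a median of -0.02 (-0.05 to -0.0022 when 1 heart was left out), -0.21 for Polg, the DNA polymerase of mitochondria, and -0.11 for Fastk.

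Regulators of mitochondrial biogenesis had a median log2 fold change of 0.0017, on either side of 0 when 1 heart was left out (-0.02 to 0.04), over 7 measured genes of 17 listed. Ppargc1a, the coactivator PGC-1 alpha that raises transcription of nuclear genes for mitochondria, was on the higher side. It stood at 207, 199, 206 and 206 CPM in controls and at 233, 307 and 255 CPM in transferred hearts, with no overlap. Its log2 fold change was 0.37 ± 0.09 (SE), with an edgeR p of 0.00277 that became 0.143 after adjustment. Nrf1 was at 0.08 ± 0.09 (SE) and Sirt3, a deacetylase of mitochondria, at -0.13 ± 0.08 (SE). Tfam and Esrra are not analysed here.

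The respiratory chain and the cytosolic ribosome were set beside the mitochondrial ribosome as the other large families that this machinery works with or resembles. Nuclear genes for respiratory chain and ATP synthase subunits had a median log2 fold change of -0.05, with 28 of 35 below 0. Without transferred heart 3 the median was -0.02 with 18 below 0, and without transferred heart 2 it was -0.09. None passed the threshold by edgeR and 1 did by DESeq2, and 2 were lower at an unadjusted p under 0.05 (5.71%, near the 5.27% of all tested genes). In either direction the latter count was 4 without transferred heart 2, 3 without control heart 1, and 1 without transferred heart 1 or control heart 2 or 4. Among them Cox7a1, the muscle form of a cytochrome oxidase subunit, was at -0.36 ± 0.10 (SE; edgeR adjusted p = 0.183) and Ndufa3 at -0.21 ± 0.09 (SE; edgeR adjusted p = 0.368). By heart, their median against control means was -0.05, 0.05 and -0.17 in transferred hearts 1, 2 and 3, with transferred heart 3 lowest here too.

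Cytosolic ribosomal protein genes lay on the other side. Of 38 genes 37 were tested, and all 37 had values above 0, with a median of 0.20 (0.12 to 0.28 when 1 heart was left out), whereas 50.3% of all tested genes were below 0. By edgeR 0 passed the threshold and 14 were higher at an unadjusted p under 0.05 (37.8%, against 7.17% of all tested genes), and by DESeq2 1 passed (against 3.29%). The count of 14 came to 2 and 3 without transferred hearts 2 and 1, to 4 without control heart 4, to 7 without control heart 1 or 3, and to 32 without transferred heart 3. Rps21 was at 0.31 ± 0.08 (SE; edgeR adjusted p = 0.151) and Rpl12 at 0.35 ± 0.11 (SE; edgeR adjusted p = 0.229). Over all alternatives run, 34 to 37 of the 37 were above 0. By heart their median was 0.32, 0.25 and 0.01 in transferred hearts 1, 2 and 3. With total counts these medians were 0.23, 0.30 and 0.08, all above the controls, which lay between -0.09 and 0.05. Among the transferred hearts, heart 3 thus had the lowest median in each of the 3 families with TMM scaling, but with total counts the respiratory chain was lowest in transferred heart 1 (-0.12, against -0.09 in transferred heart 3).

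The sum over the mitochondrial family divided by the sum over the cytosolic family does not depend on how a library is scaled. It was 0.257, 0.256, 0.259 and 0.270 in controls and 0.212, 0.210 and 0.233 in transferred hearts, with all 3 transferred hearts below all 4 controls. The means were 0.261 ± 0.006 (SD, n = 4) and 0.218 ± 0.013 (SD, n = 3), a quotient of 0.838. By heart the sums differed. In transferred hearts 1 and 2 the cytosolic sum was 25571 and 24129 CPM, above every control, and the mitochondrial sum was 5428 and 5058 CPM. In transferred heart 3 the TMM-scaled cytosolic sum, 20207 CPM, was within the range of controls. The mitochondrial sum there, 4715 CPM, was the lowest of the 7 hearts. With total counts, though, the cytosolic median of transferred heart 3 (0.08) lay above every control. The cytosolic sum averaged 20378 ± 693 CPM (SD, n = 4) in controls and 23303 ± 2776 CPM (SD, n = 3) in transferred hearts, 1.14 times as much, while the mitochondrial sum was 0.954 times that of controls. No test was made of this ratio, since both families were chosen with earlier results known. Cytosolic ribosomal protein genes have many processed copies in the genome. Their counts could therefore be less certain than those of the mitochondrial family, which was not tested. The macrophage and monocyte sums given above likewise did not overlap between the groups, and their part in the ratio was not tested.

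**Figure D4:**
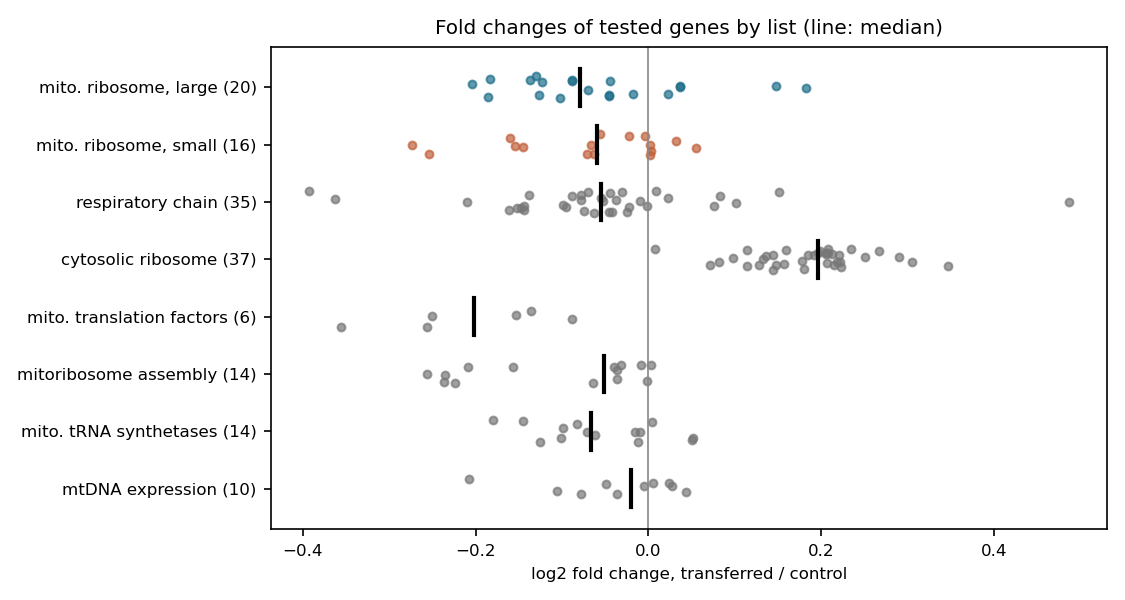
Log2 fold change, transferred over control (x axis), of each tested gene in 8 families (y axis, with the number of tested genes). Points are genes and vertical bars are medians. Both subunits of the mitochondrial ribosome and the respiratory chain centre slightly below 0, the translation factor list lies at a median of -0.20, and all 37 cytosolic ribosomal genes lie above 0.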

How the data were processed

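RNA of 7 hearts was compared in 2 groups taken from the treatment label, 4 control and 3 transferred. The authors deposited 1 table of estimated counts per gene without normalization, and 4.63% of values had a fraction. The submitters' processing notes name bcl2fastq 2.20.0.422, cutadapt 2.5, STAR 2.7.2b, featureCounts 1.6.4, DESeq2 1.22.2 and build GRCm38.p6, with no order or settings. Values were rounded to whole counts, and 1 incomplete row was left out. With edgeR 4.0.16 in R 4.3.3, genes were filtered with filterByExpr and scaled with TMM, and a robust quasi-likelihood model (legacy method) was fitted to all tested genes, with p-values adjusted by Benjamini-Hochberg over all of them. CPM floors cover counting error only.

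Separate animals are implied by separate identifiers but not stated, so p-values measure the spread between these samples. Alternatives were other scalings and filters, DESeq2 1.42.0, limma-voom (limma 3.58.1), the identifier form as a covariate, and leaving out each heart. The newer quasi-likelihood method, the restricted gene sets and the scalings by heart were chosen after seeing the data. The script was tested on simulated data. Members, lists and motifs were chosen with earlier results of these data known, and the division into bacterial-type and mitochondria-specific proteins after their values were seen. Genes named with values in every heart were, per subunit, the 4 with the smallest p and the highest and lowest by level per length, besides all without overlap. Of each list, the 2 with the smallest p were named (1 such gene is not reported here), and Tufm, Ppargc1a and Nrf1. The values of Mrps26, Mrpl51, Mrpl30 and the back-to-back pairs were added after they were seen.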

Additional observations from a re-analysis of the deposited data

How the results depend on the processing

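No mitochondrial ribosomal protein gene passed the threshold in the main fit or in any of 19 alternatives. The median over the 36 genes stayed below 0 in each, from -0.13 (without transferred heart 1) to -0.00042 (without transferred heart 3) when 1 heart was left out. Without transferred heart 3 it lay above the -0.013 of all tested genes in that fit. The large subunit median ran from -0.14 to -0.03 and the small subunit median from -0.10 to 0.014 when 1 heart was left out, the upper end of each without transferred heart 3. The count of genes at an unadjusted p under 0.05 ran from 2 to 6. Of the 36 genes, 21 kept their sign in every alternative, and 15 with fold changes near 0 did not, and the cause was not tested. Without the letter-prefixed hearts, log2 fold changes turned to -0.086 for Mrpl47, -0.056 for Mrpl48, -0.080 for Mrps11, -0.015 for Mrps14, 0.020 for Mrps15, -0.026 for Mrps18c and -0.027 for Mrps35. With upper-quartile scaling they turned to -0.0047 for Mrps11, -0.0055 for Mrps26 and -0.0054 for Mrps35, with limma-voom to -0.0010 for Mrps11 and -0.0016 for Mrps35, with the identifier form as a covariate to -0.011 for Mrps11 and -0.0046 for Mrps26, and with total counts to 0.0097 for Mrps15. When each heart was left out in turn, values ran from -0.12 to 0.046 for Mrpl1, -0.17 to 0.025 for Mrpl19, -0.13 to 0.044 for Mrpl30, -0.064 to 0.097 for Mrpl47, -0.048 to 0.10 for Mrpl48, -0.15 to 0.031 for Mrpl51, -0.085 to 0.065 for Mrps11, -0.0072 to 0.056 for Mrps14, -0.044 to 0.056 for Mrps15, -0.0046 to 0.13 for Mrps18c, -0.15 to 0.037 for Mrps25, -0.020 to 0.026 for Mrps26, -0.091 to 0.057 for Mrps28, -0.18 to 0.0069 for Mrps31 and -0.053 to 0.084 for Mrps35. Over all tested genes, DESeq2 called 252 and edgeR 18, total-count scaling 35, the fit of every gene with a count 81, and limma-voom and the covariate fit 0 each (907 and 973 at an unadjusted p under 0.05). Leaving out 1 heart gave from 0 to 140 calls, the latter without transferred heart 3. No paired analysis was possible because the groups shared fewer than 2 replicate numbers in the labels. With 4 and 3 hearts, the intervals of single genes allow differences up to the bounds given in the results.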

Other observations

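Pseudogenes of the family were also counted. Mrps36-ps2 on chromosome 7 (105690040 to 105690577) was at 24.7, 34.8, 30.7 and 31.2 CPM in control hearts 1 to 4 and at 19.8, 24.8 and 24.6 CPM in transferred hearts 1 to 3, with a log2 fold change of -0.40 ± 0.14 (SE) and an edgeR adjusted p of 0.283. Its parent gene, Mrps36, is not analysed here, so whether the reads came from the pseudogene is unknown. Mrpl48-ps on chromosome 4 was at 28.2 ± 3.42 CPM (SD, n = 4) in controls and 27.5 ± 3.51 CPM (SD, n = 3) in transferred hearts, and Mrps36-ps3 was at 0 in every heart.

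Neighbours that start back to back with a gene of the family also differed in level. Ndufb5, a complex I subunit that starts 301 bases from Mrpl47, was at 1267 CPM in controls beside 57.8 CPM for Mrpl47, and their log2 fold changes were -0.02 ± 0.08 and 0.04 ± 0.10 (SE). Pnpla7, 891 bases from Mrpl41, had a log2 fold change of -0.30 ± 0.12 (SE) with an edgeR adjusted p of 0.345, beside -0.09 ± 0.06 for Mrpl41. Zfp189, 92 bases from Mrpl50, was at 0.24 ± 0.14 and Mrpl50 at -0.19 ± 0.09 (SE). The level of Zfp189 in controls was 12.7 CPM, and its edgeR adjusted p was 0.537. None of these differences between neighbours was tested.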
